A study of Mus musculus with 12 samples.

Results

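The 6 genes described here, Bin1, Dnm2, Mtm1, Cav3, Dysf and Speg, encode proteins that shape, anchor or reseal the membranes of the skeletal muscle fibre. Their AGO2 peaks were taken from lists of AGO2-bound RNA in mouse tibialis anterior muscle, as every listed peak that overlapped an annotated gene of this set on the same strand by at least 1 nt, with no threshold on height or p-value. Of 713343 listed peaks in 4 libraries, 1238 belonged to these genes: 170 of 92451 in WT set 1, 244 of 119859 in mir-486 KO set 1, 396 of 244814 in WT set 2 and 428 of 256219 in mir-486 KO set 2. The rule uses no measured value, but the genes were chosen with earlier results of these data known, and Bin1 is a target that the study names from the same experiment.

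T-tubules are inward folds of the fibre's plasma membrane that carry the action potential to the triads, where calcium is released. BIN1 is a BAR-domain protein that bends membrane into tubules, and DNM2 is a large GTPase that cuts membrane necks. MTM1 removes a phosphate from phosphoinositides, and SPEG is a muscle kinase that binds MTM1 at the triad. CAV3 is the caveolin of muscle and coats caveolae, and DYSF is a calcium-sensing ferlin needed to reseal torn membrane. Inherited defects in BIN1, DNM2, MTM1 and SPEG cause centronuclear myopathies, and those in CAV3 and DYSF cause limb-girdle and related dystrophies. AGO2 is the Argonaute protein that holds a miRNA on its target, where the miRNA's seed pairs with a short complementary word.

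The study asked which transcripts miR-486 binds in muscle. Both genotypes were 6-month mice, male by the study's methods. The WT mice are labelled C57BL/6 with genotype wildtype. The knockout mice are labelled FVB N/J with genotype miR-486-/-, a germline deletion of the miR-486 hairpin in the Ank1 locus, whereas the study's methods describe a C57BL/6J background for the line; by the labels, genotype and strain cannot be told apart. No other allele, agent or treatment is given for either group. Each genotype had 1 total AGO2 chimeric eCLIP library in each of 2 library sets, with an input library of the same lysate; libraries further amplified for miR-486 chimeras were not analysed here. In eCLIP, RNA is crosslinked to protein with UV light, the protein is immunoprecipitated and the bound fragments are sequenced. The study's methods and design text give differing numbers of samples per genotype, performed in duplicate, and the labels do not tie a library to an animal, so the spread between sets may be technical.

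Each peak carries a log2 fold over input and a −log10 p, and a second pair of values from a direct comparison, WT over mir-486 KO at WT peaks or mir-486 KO over WT at KO peaks, which uses no input. A peak is called enriched where both its log2 fold and its −log10 p reach 3, and a lower log2 threshold of 1 at the same p is given beside it. The −log10 p of a peak compares reads of 2 libraries, not genotypes. With 2 libraries per genotype the smallest 2-sided exact permutation p is 0.333, so no difference between genotypes was tested. Read counts were not among the files, so the depth behind a value is unknown, and many low peaks share exactly the same direct log2 value. Of the intronic peaks of the 6 genes, 87.2%, 90.1%, 88.1% and 86.3% in WT set 1, KO set 1, WT set 2 and KO set 2 sat on a direct value shared by at least 100 listed peaks. Of their coding-sequence (CDS) peaks, 75.2%, 76.3%, 63.0% and 69.0% did. Over all listed peaks the shares were 93.3%, 96.8%, 95.9% and 95.6% of intronic peaks and 78.3%, 75.5%, 75.0% and 75.5% of CDS peaks.

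The sequences below are a selection. They come from peaks past the thresholds over input or in a direct comparison, and from some of the sites found in every library. Other sites with a word in every library are not printed. Capitals mark a 7-nt word complementary to bases 2 to 8, the seed, of a miRNA. Words were searched on the transcript strand only, within the peak and 25 nt on either side: GTACAGG for miR-486-5p, ACATTCC for miR-1 and miR-206, GGACCAA for miR-133, CTACCTC for let-7, TGGTGCT for miR-29 and TGTTTAC for miR-30. RefSeq mature sequences on GRCm38 are shown for a representative of each family with a word under these peaks, with bases 2 to 8 in capitals; miR-486-5p, miR-1a-3p and miR-133a-3p are named only.
miR-206-3p: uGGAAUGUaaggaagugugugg
miR-133b-3p: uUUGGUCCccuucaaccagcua
let-7b-5p: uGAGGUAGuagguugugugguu
miR-29a-3p: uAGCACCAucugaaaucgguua
Cav3, coding part of the peak with the highest log2 fold in WT set 1, chr6:112472398-112472475, plus strand, with a miR-29 word: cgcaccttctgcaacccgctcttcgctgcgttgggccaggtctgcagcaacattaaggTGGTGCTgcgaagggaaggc
Speg, 3′ UTR of the short isoforms, plus strand, with a miR-133 word at chr1:75404410-75404416: tggcaagattaGGACCAAgtggggtaccc
Speg, intron and RefSeq exon, plus strand, with a miR-133 word at chr1:75383411-75383417: gtccatctgtgGGACCAAgtgccatgttc
Speg, exon 36, plus strand, with a let-7 word at chr1:75427973-75427979: gcctgactctcCTACCTCactggccccca
Speg, intronic peak enriched in KO set 2, chr1:75396871-75396949, plus strand, with a let-7 word: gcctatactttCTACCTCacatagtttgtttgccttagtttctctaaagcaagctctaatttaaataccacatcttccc
Speg, intronic peak past the direct threshold in KO set 1, chr1:75379087-75379199, plus strand, with none of the words: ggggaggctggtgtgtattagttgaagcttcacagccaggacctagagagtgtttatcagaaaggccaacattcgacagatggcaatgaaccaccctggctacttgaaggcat
Dysf, exon 45, plus strand, with a let-7 word at chr6:84189706-84189712: tcacctgcactCTACCTCtggagaaggac
Dysf, intron, plus strand, with the word of miR-1 and miR-206 at chr6:84028797-84028803: aagacttcataACATTCCactatggccct
Dysf, intron, plus strand, with the word of miR-1 and miR-206 at chr6:84051838-84051844: atcactcttatACATTCCggtctcttttt
Dysf, intron, plus strand, with the word of miR-1 and miR-206 at chr6:84164223-84164229: tattcttcccaACATTCCatggacacacc

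Few of the 1238 peaks stood high above input. WT set 1 held 2 enriched peaks, both in Cav3, against 3.57% of all listed peaks in that library; KO set 1 held none, against 0.848%. WT set 2 and KO set 2 held 1 enriched peak each, both in Speg, against 1.42% and 1.23% of all listed peaks. At the log2 threshold of 1 the counts were 7 (Bin1 3, Cav3 3, Dysf 1), 0, 19 (Bin1 9, Speg 7, Dysf 2, Cav3 1) and 6 (Speg 4, Bin1 1, Cav3 1) in the same order, or 4.12%, 0, 4.80% and 1.40% of the genes' listed peaks, against 7.14%, 1.99%, 5.37% and 4.72% of all listed peaks. The 95% Wilson intervals of these shares, which cover counting error only, ran from 2.01% to 8.25%, from 0 to 1.55%, from 3.09% to 7.37% and from 0.644% to 3.02%. Dnm2 and Mtm1 had no peak at log2 1 or higher with a −log10 p of at least 3 in any of the 4 libraries. Peaks above input at all, with a log2 fold over 0, made up 79.4%, 59.8%, 58.8% and 56.1% of the 6 genes' peaks, against 77.8%, 69.1%, 68.9% and 64.5% of all listed peaks.

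**Figure D1:**
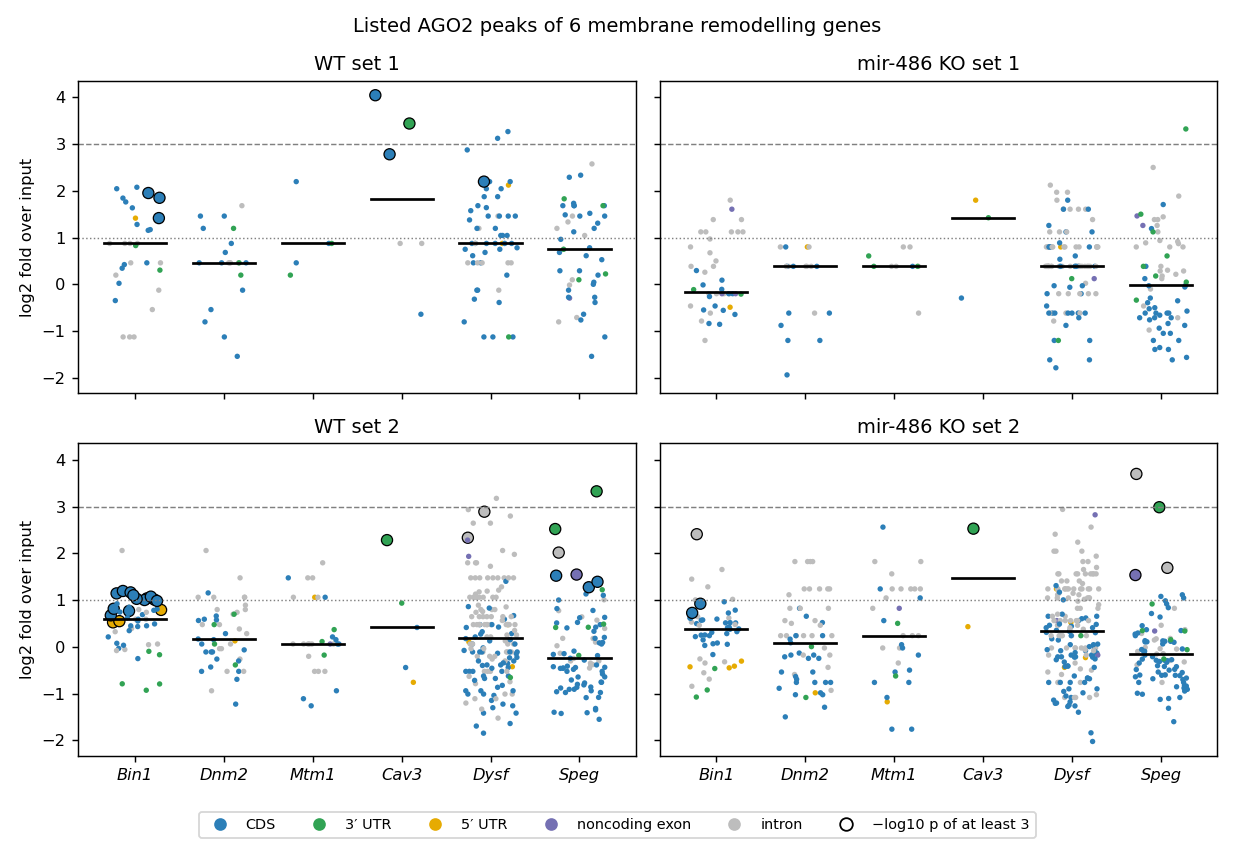
Log2 fold over input of each listed AGO2 peak (y axis, log2) of the 6 genes in the 4 libraries, with points coloured by transcript region and ringed at a −log10 p of at least 3, black bars for the gene's median, and dotted and dashed lines at log2 1 and 3. The ringed points above the dashed line are 2 Cav3 peaks in WT set 1, 1 Speg 3′ UTR peak in WT set 2 and 1 Speg intronic peak in KO set 2.

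Bin1 (chr18:32377230-32435737, plus strand, GRCm38) had the largest share of coding sites found in every library, 92.9%, against 41.1% over the 6 genes. The share was not computed over all genes. It had 31, 42, 54 and 55 listed peaks in WT set 1, KO set 1, WT set 2 and KO set 2, with median log2 folds over input of 0.87, −0.16, 0.59 and 0.38. Overlapping peaks of the 4 libraries were joined into sites; of 14 CDS sites, 13 were listed in all 4 libraries, in exons 1 to 10 and 13 to 15 of the 15-exon reference transcript. Exon 12 had a peak in WT set 1 alone, and exon 11 had none.

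The peaks of Bin1 past log2 1 in WT set 1 lay in exon 1 (1.42, −log10 p 3.82), exon 2 (1.95, −log10 p 4.24) and exon 10 (1.85, −log10 p 6.05). All 9 in WT set 2 lay in exons 1, 2 and 3, with log2 folds of at most 1.19, and several were short adjoining pieces of the same exon. They made up 16.7% of Bin1's listed peaks there (95% Wilson interval 9.02% to 28.7%), against 5.37% of all listed peaks. The interval counts each piece of an exon as a separate trial, which such pieces are not, so it is too narrow. In KO set 1 the highest log2 fold of the site in exon 1 was −0.49 and in exon 2 was −0.55, and in KO set 2 these were 0.22 and 0.51. At both exons the 2 WT libraries lay above the 2 KO libraries, whereas at exon 4 the highest value was that of KO set 2, 0.72.

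In the direct comparison of set 1, 6 Bin1 peaks lay at log2 1 or higher in WT over mir-486 KO with a −log10 p of at least 3, out of 10 over the 6 genes and 4.85% of all listed peaks: exon 1 (1.20), exon 2 (1.45), exon 3 (1.21), exon 5 (1.39), exon 10 (1.46) and exon 13 (1.36). In set 2, the count was 1, against 0.403% of all listed peaks, and the peak was the 5′ UTR at chr18:32377255-32377365, with a direct log2 fold of 1.02 (−log10 p 15.2) and a fold over input of 0.52. Site by site, the direct log2 fold in WT (median of the site's peaks) was 0.61 in set 1 and 0.92 in set 2 at exon 1, and 0.85 and 0.63 at exon 2. Over all listed CDS peaks the direct median was 0.82 in set 1 and 0.05 in set 2, so exon 2 lay near it in set 1 and above it in set 2. The exon 1 site also holds 5′ UTR peaks. In set 1 its 5′ UTR peak was at 0.01 and its CDS peak at 1.20, below and above the CDS median. In set 2 the value of the exon 1 site lay above that median. At exon 10 the values were 1.46 and 0.04, and at exon 13 they were 1.36 and 0.03. Those exons lay above the median of all CDS peaks in set 1 and near it in set 2. Exon 14 gave 0.67 and −0.47, and exon 6 gave −0.01 and −0.03.

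Of the 15 Bin1 CDS peaks of WT set 1 that overlapped a CDS peak of WT set 2, 11 had a direct log2 fold above 0 in both sets and 1 lay below 0 in both. Over all genes, 35.5% of 38699 such peaks were above 0 in both sets, and over the 6 genes 44 of 100 were: 4 of 13 in Dnm2, 1 of 2 in Mtm1, 1 of 2 in Cav3, 17 of 43 in Dysf and 10 of 25 in Speg. Peaks of a transcript share its abundance and are not replicates, and the direct comparison is not corrected for input. In RNA of whole muscle, fewer fibres and less bound RNA per fibre cannot be told apart. Skeletal muscle fibre markers (Acta1, Ckm, Myh4, Tnnt3, Pvalb, Mb, Tnnc2 and Mylpf, all 8 listed in each library) were also higher in WT in set 1, with a median of the genes' median log2 folds over input of 1.91 in WT and −0.45 in KO, against −0.27 and −0.11 in set 2. Their direct medians in WT over KO were 0.69 in set 1 and −0.04 in set 2; their part in the Bin1 values was not tested.

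**Figure D2:**
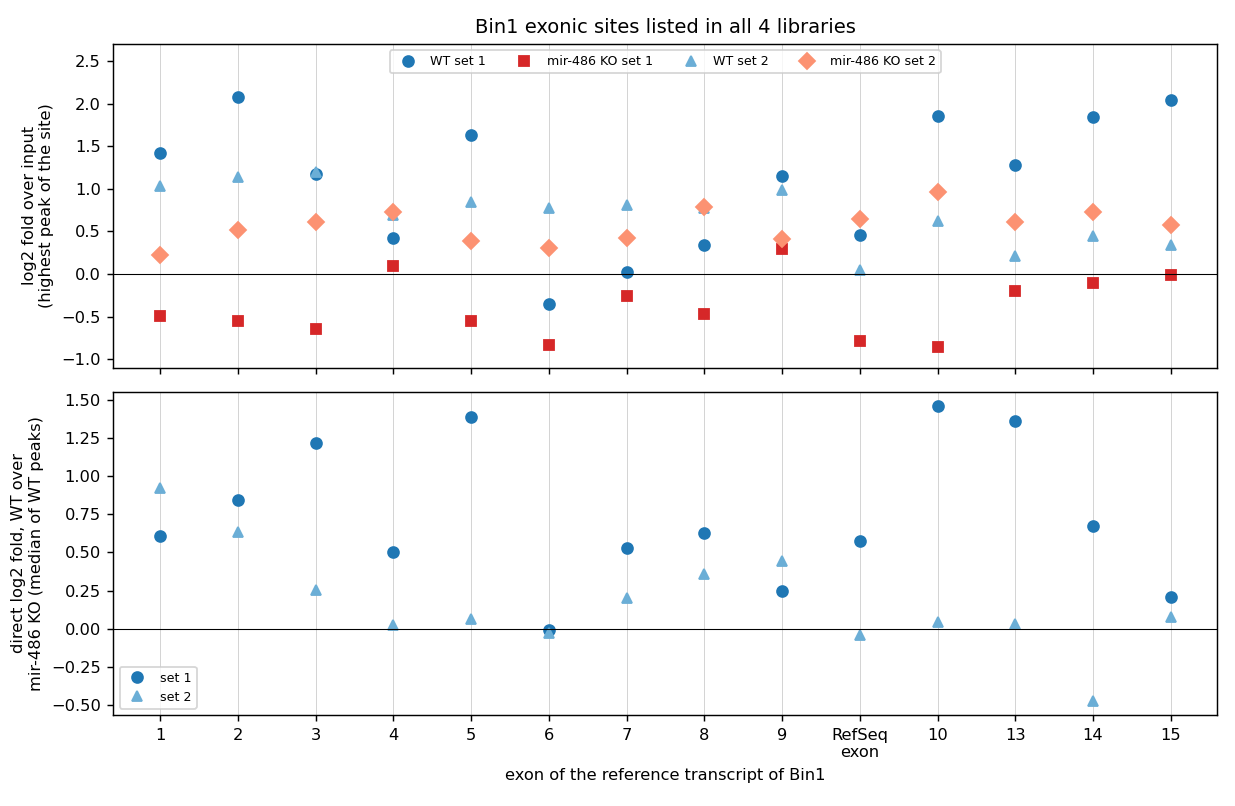
Bin1 sites listed in all 4 libraries, by exon of the reference transcript (x axis; the RefSeq exon lies between exons 9 and 10): the highest log2 fold over input per library above, and the median direct log2 fold of WT over mir-486 KO at WT peaks below. WT set 1 lies above KO set 1 at every site drawn, while the direct folds of set 2 exceed those of set 1 at exons 1 and 9 and lie near 0 from exon 10 onward, except at exon 14.

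An additional Bin1 site fell in a GENCODE M21 intron and on an exon that RefSeq annotates: chr18:32423242-32423286, 45 nt long and part of 12 of 30 RefSeq Bin1 transcripts. Its site was listed in all 4 libraries, with log2 folds over input of 0.46 in WT set 1, −0.79 in KO set 1, 0.04 in WT set 2 and 0.64 in KO set 2. WT was the higher genotype in set 1 and the lower in set 2. The other intronic Bin1 site of all 4 libraries, chr18:32383837-32384008, was highest in KO set 2 at 2.41 (−log10 p 3.87), followed by KO set 1 at 1.38, WT set 2 at 1.15 and WT set 1 at 0.87. Its direct log2 fold was −0.65 and −0.69 in WT over KO and 0.10 and 1.12 in KO over WT (sets 1 and 2). Both KO libraries thus lay above both WT libraries over input there, opposite in order to exons 1 and 2. No listed Bin1 peak held the miR-486-5p word.

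Dnm2 (chr9:21424908-21507759, plus strand), the dynamin that cuts tubule and endocytic necks, had 21, 19, 47 and 59 listed peaks. Its median log2 folds over input were 0.46, 0.38, 0.17 and 0.09, and its highest listed values were 1.68, 0.80, 2.06 and 1.82 with −log10 p values below 3. Of 21 CDS sites, 8 were listed in all 4 libraries, and of 51 intronic sites none were. The direct medians in WT over KO were 0.74 in set 1 and 0.33 in set 2, beside 0.74 and 0.30 over all listed peaks. No Dnm2 peak passed a direct threshold in either direction. The miR-486-5p word occurred beside 1 listed Dnm2 peak, in an intron at chr9:21498888-21498894 in WT set 1, where the log2 fold over input was 0.46.

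Mtm1 (chrX:71210767-71315691, plus strand), the phosphoinositide phosphatase, was sparsely covered: 5, 10, 29 and 34 peaks were listed, with median log2 folds over input of 0.87, 0.38, 0.06 and 0.24. Of 53 sites, 2 were found in all 4 libraries. The site in coding exon 10, chrX:71296179-71296344, had log2 folds of 0.46, 0.38, 0.06 and −0.54, and that in the 3′ UTR, chrX:71314714-71314847, had 0.87, 0.38, 0.11 and 0.50. Both sites were low in every library. The direct medians of 0.57 and 0.23 in WT over KO stood beside 1.43 and 0.38 in KO over WT, so the genotypes were each the higher at their own peaks. The same held over all listed peaks, with medians of 0.74 and 0.30 in WT over KO and 0.72 and 0.27 in KO over WT.

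Speg (chr1:75375297-75432320, plus strand), the kinase of the triad, held the site with the highest mean log2 fold over input among those listed in all 4 libraries. It is the 3′ UTR of the short isoforms Speg-202 and Speg-205, chr1:75404320-75404534, which lies within an intron of the full-length transcript and carries the GGACCAA word printed above. Its log2 folds over input were 1.83 in WT set 1, 3.32 in KO set 1, 3.32 in WT set 2 and 2.98 in KO set 2. Only WT set 2 passed both thresholds (−log10 p 12.2); KO set 2 fell just short at log2 2.98 with a −log10 p of 9.17, and KO set 1 missed on its −log10 p of 2.51. The genotypes overlapped, and the direct log2 folds were 0.53 and 0.11 in WT over KO and −0.68 and −0.20 in KO over WT.

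The neighbouring Speg 3′ UTR site, chr1:75404079-75404319, was uneven, with 0.10, 1.5, 2.52 and 0.92 over input. Another Speg site with GGACCAA, chr1:75383337-75383534, had log2 folds of 1.33, 1.89, 2.01 and 1.69 over input, and direct folds of −0.85 and −0.25 in WT over KO and 0.61 and 0.21 in KO over WT. It lay in a GENCODE M21 intron, inside a RefSeq exon of 932 nt (chr1:75383137-75384068) that is part of 5 of 32 RefSeq Speg transcripts. The adjoining noncoding-exon site, chr1:75383575-75384069, had −0.02, 1.46, 1.54 and 1.53 over input. WT set 1 stood apart from the other 3 libraries there. In the full-length coding sequence, the exon 36 peaks with the let-7 word were at 1.49, −0.06, 1.52 and 0.84 over input in WT set 1, KO set 1, WT set 2 and KO set 2. Only that of WT set 2 reached a −log10 p of 3 (5.49). Their direct folds were 0.85 and 0.25 in WT over KO and −0.64 and −0.39 in KO over WT. Over all listed CDS peaks the direct medians were 0.82 and 0.05 in WT over KO and −0.16 and 0.04 in KO over WT. The other exon 36 peaks of WT set 1, chr1:75428023-75428109 and chr1:75428235-75428327, had direct folds of −0.17 and 0.06. The KO set 1 peak, chr1:75427902-75428117, also covers the first of these.

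Speg also held the only peak of the 6 genes past a direct log2 fold of 3 with a −log10 p of at least 3, an intronic peak at chr1:75379087-75379199 in KO over WT of set 1 (3.75, −log10 p 3.17), against 0.179% of all listed peaks; over input it was at 0.12. The enriched intronic peak of KO set 2, chr1:75396871-75396949, was at 3.70 over input (−log10 p 3.15) and 0.53 in the direct comparison. Each of these was seen past the threshold in 1 library only. In WT over KO of set 1, Speg exon 4 (chr1:75388682-75388858) was at 1.74 and exon 41 (chr1:75431326-75431468) at 1.60. These were the 2 of 48 Speg peaks past log2 1 there, or 4.17%, against 4.85% of all listed peaks. In WT set 2 a peak overlapping the first had a direct fold of 0.17, and a peak overlapping the second had −0.08. In KO over WT of set 2 a peak at chr1:75381490-75381614, within a RefSeq exon, was at 1.0 (−log10 p 3.86, background 0.144% of listed peaks). The median log2 fold of all Speg peaks over input was 0.75, −0.02, −0.25 and −0.16.

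Cav3 (chr6:112459505-112472872, plus strand), the muscle caveolin, has 2 exons, and its highest peaks lay in exon 2. It had 6, 3, 5 and 2 listed peaks, the only one of the 6 genes with more in WT than in KO in both sets (mean log2 ratio 1.16 ± 0.23, SD, n = 2 sets; all listed peaks −0.22 ± 0.22). These peaks covered 716, 519, 684 and 684 nt in WT set 1, KO set 1, WT set 2 and KO set 2. In set 2 the number of peaks thus differed between genotypes and the length covered did not. In WT set 1 the last CDS peak, chr6:112472398-112472548, which runs into the 3′ UTR, was at 4.04 over input (−log10 p 4.65), the 3′ UTR peak, chr6:112472584-112472823, at 3.44 (−log10 p 8.06) and an upstream CDS peak, chr6:112472209-112472311, at 2.78 (−log10 p 3.01).

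Taken as 1 site, the end of Cav3 exon 2 had log2 folds over input of 4.04 in WT set 1, 1.42 in KO set 1, 2.28 in WT set 2 and 2.53 in KO set 2. Set 1 was higher in WT, and set 2 was not. Its direct log2 folds were 1.07 and −0.24 in WT over KO, and −1.16 and 0.17 in KO over WT, for sets 1 and 2. The upstream CDS peak of WT set 1 had a direct log2 fold of 2.74 (−log10 p 4.95), and the overlapping peak of WT set 2 had 0.74 (−log10 p 0.79). The TGGTGCT word of miR-29 in the printed coding sequence lay within or beside a listed peak in all 4 libraries.

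Dysf (chr6:84008590-84211060, plus strand), the ferlin of membrane repair, had the most peaks: 59, 101, 170 and 181, with median log2 folds over input of 0.87, 0.38, 0.19 and 0.33. The processed pseudogene Gm7498 lies inside its span on the same strand. No Dysf peak was enriched; log2 folds above 3 occurred at exons 20 (3.27) and 33 (3.12) in WT set 1 and in an intron in WT set 2 (3.17), with −log10 p values of 2.34, 2.13 and 1.94. Of 58 CDS sites, 31 were listed in all 4 libraries. Exon 45, with the let-7 word printed above, had log2 folds over input of 2.20, 1.61, 0.86 and 1.17 (chr6:84189682-84189856). Its WT peak in set 1 was at 1.57 in the direct comparison (−log10 p 3.59), while in WT set 2 it was at −0.28.

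Among the intronic Dysf sites, 4 were listed in all 4 libraries, and 3 of these held ACATTCC, the word of miR-1 and miR-206. The site at chr6:84028688-84029047 had log2 folds over input of 1.20, 1.97, 2.33 and 1.56; that at chr6:84051767-84051967 had 1.46, 0.02, 2.89 and 2.24; and that at chr6:84164198-84164339 had 0.46, 0.38, 1.47 and 1.94. Only the WT set 2 peaks of the first and second sites reached a −log10 p of 3. The second site also held TGGTGCT, the word of miR-29. Over the 6 genes, 8 intronic sites were listed in all 4 libraries, and only these 3 held ACATTCC. Over all genes, 24.5% of the 3490 intronic WT set 2 peaks found in all 4 libraries held ACATTCC. Those are single peaks, whereas the sites join the peaks of the 4 libraries, so the windows searched differ. Over every listed peak, ACATTCC was less frequent in the 6 genes than in all genes. It was found with 2.35%, 2.05%, 1.77% and 1.87% of their peaks in WT set 1, KO set 1, WT set 2 and KO set 2. The shares of all listed peaks were 4.81%, 3.08%, 3.32% and 3.0%. The site without the word, chr6:84145286-84145483, had 0.46, 0.80, 1.19 and −0.47. Of these 3 sites with the word, 0, 54.2% and 15.5% of the bases were soft-masked as repeats in the reference, and 48.5% of the site without it.

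**Figure D3:**
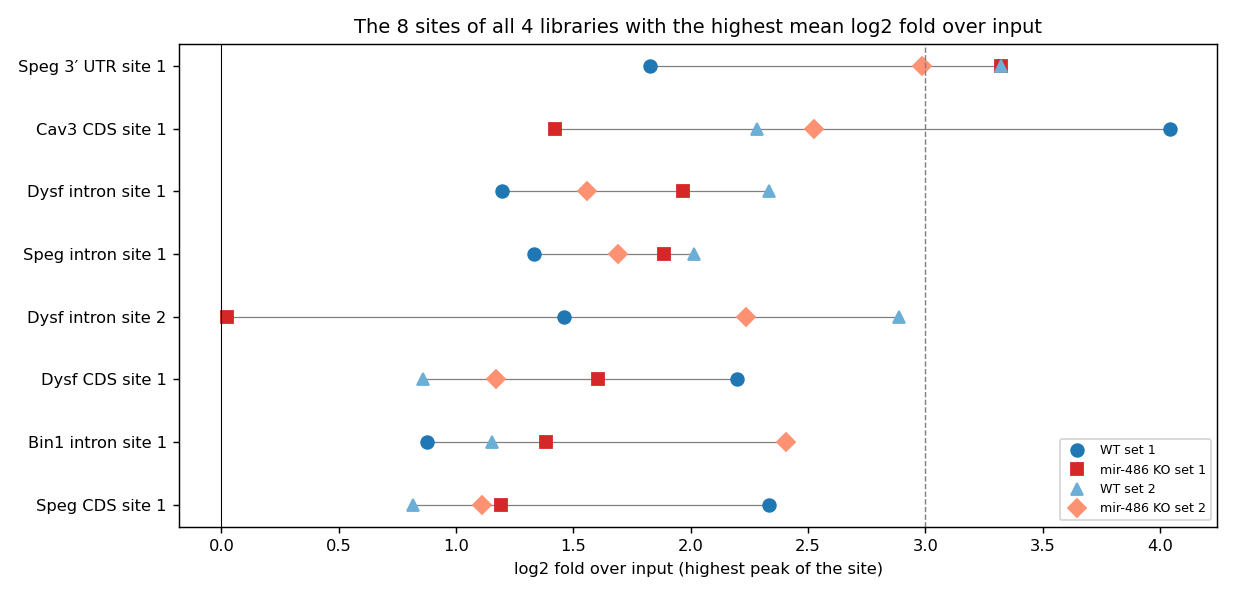
The 8 sites of the 6 genes listed in all 4 libraries with the highest mean log2 fold over input (x axis, log2; the highest peak of the site in each library), with a dashed line at log2 3. The Speg 3′ UTR site spans 1.83 to 3.32 and the end of Cav3 exon 2 spans 1.42 to 4.04.

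In all, the peaks of the 6 genes formed 576 sites, of which 358 were listed in 1 library, 87 in 2, 46 in 3 and 85 in 4. Of the 85, 72 were in coding sequence. Introns gave 371 sites, of which 8 were in all 4 libraries. Sites were joined for the 6 genes only, so no counts over all genes stand beside these. Of WT set 1 peaks, 78.8% overlapped a WT set 2 peak (all genes 69.5%), and of KO set 1 peaks 54.5% overlapped a KO set 2 peak (all genes 54.1%). Starting from the larger lists, 44.2% of WT set 2 peaks overlapped WT set 1 (all genes 29.3%) and 39.3% of KO set 2 peaks overlapped KO set 1 (all genes 28.3%). None of the 4 enriched peaks overlapped an enriched peak of the other set or genotype compared with it, where over all enriched peaks 34.4% of WT set 1 overlapped WT set 2 and 21.7% KO set 1, 37.9% of WT set 2 overlapped WT set 1 and 55.0% KO set 2, and 25.3% of KO set 2 overlapped KO set 1 and 60.2% WT set 2.

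Coding sequence took a larger share of the 6 genes' peaks than of all listed peaks in each library, at 66.5%, 39.8%, 48.5% and 49.8% against 51.8%, 35.5%, 40.2% and 39.7%. The 3′ UTR took a smaller share, at 8.24%, 6.56%, 5.56% and 3.74% against 19.3%, 18.3%, 12.2% and 11.4%. Intron shares were 22.9%, 49.6%, 42.4% and 42.5% against 21.4%, 39.5%, 41.7% and 43.1%. These shares were not scaled to the length of each region.

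**Figure D4:**
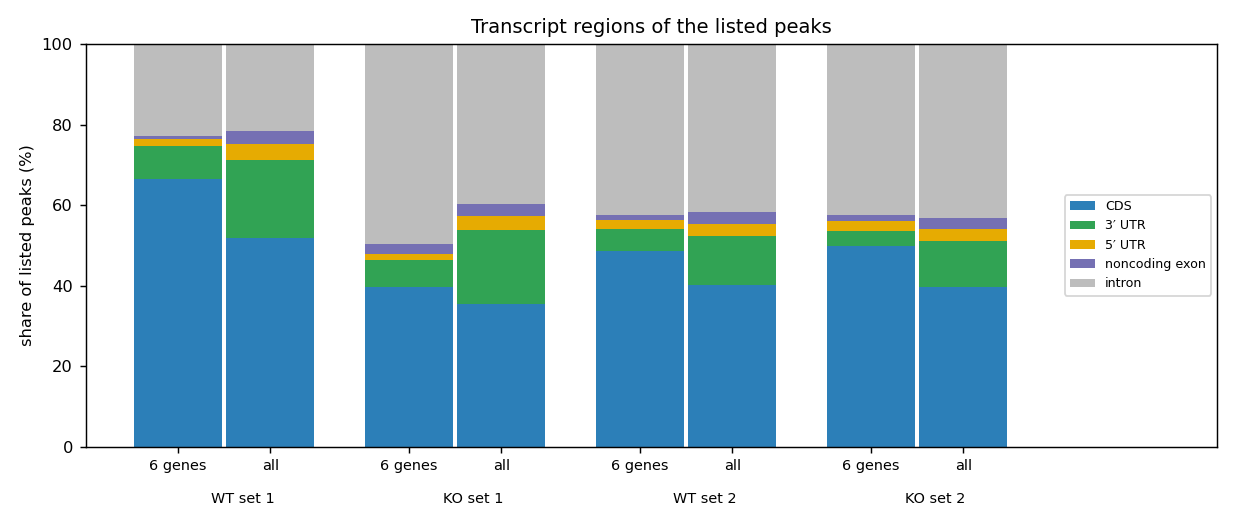
Share of listed peaks (y axis, percent) by transcript region at the peak's midpoint, for the 6 genes and for all listed peaks of each library. The 3′ UTR share of the 6 genes is below that of all peaks in each of the 4 libraries, and the CDS share is above it.

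Across all 170, 244, 396 and 428 peaks the direct median log2 fold was 0.74 in WT over KO and 0.84 in KO over WT of set 1, and 0.12 and 0.16 in set 2. All listed peaks gave 0.74, 0.72, 0.30 and 0.27. Each direct list holds the peaks of its own library, and both directions lie above 0 over all listed peaks. Peaks above 0 numbered 135 of 170, 159 of 244, 246 of 396 and 250 of 428 in WT set 1, KO set 1, WT set 2 and KO set 2, against 80.4%, 67.5%, 67.1% and 62.6% of all listed peaks. By gene, the mean of the 2 sets' WT over KO medians ranged from 0.22 ± 0.26 in Speg to 0.73 ± 1.32 in Cav3, with 0.37 ± 0.36 in Bin1, 0.54 ± 0.29 in Dnm2, 0.40 ± 0.24 in Mtm1 and 0.65 ± 0.50 in Dysf (SD, n = 2 sets). The SD between sets exceeded the mean in Speg and Cav3 and was below it in the other genes. The 6 genes together gave 0.43 ± 0.44 and all listed peaks 0.52 ± 0.32. In KO over WT the means were 0.55 ± 0.86 in Bin1, 0.27 ± 0.03 in Dnm2, 0.90 ± 0.74 in Mtm1, −0.48 ± 0.81 in Cav3, 0.60 ± 0.65 in Dysf and 0.41 ± 0.29 in Speg, beside 0.49 ± 0.32 for all listed peaks. Bin1's KO over WT medians were 1.16 in set 1 and −0.05 in set 2, and those of Bin1, Mtm1 and Speg averaged higher in this direction than in WT over KO.

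Coding sequence was then taken alone. The direct medians of CDS peaks were 0.85 in WT over KO and −0.45 in KO over WT of set 1 (all genes 0.82 and −0.16), and 0.11 and −0.12 in set 2 (all genes 0.05 and 0.04). CDS peaks above 0 made up 84.1% of the 6 genes' CDS peaks in WT over KO of set 1, against 83.2% of all, and 28.9% in KO over WT, against 43.0%. In set 2 the shares were 54.7% against 52.7%, and 43.7% against 52.3%.

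**Figure D5:**
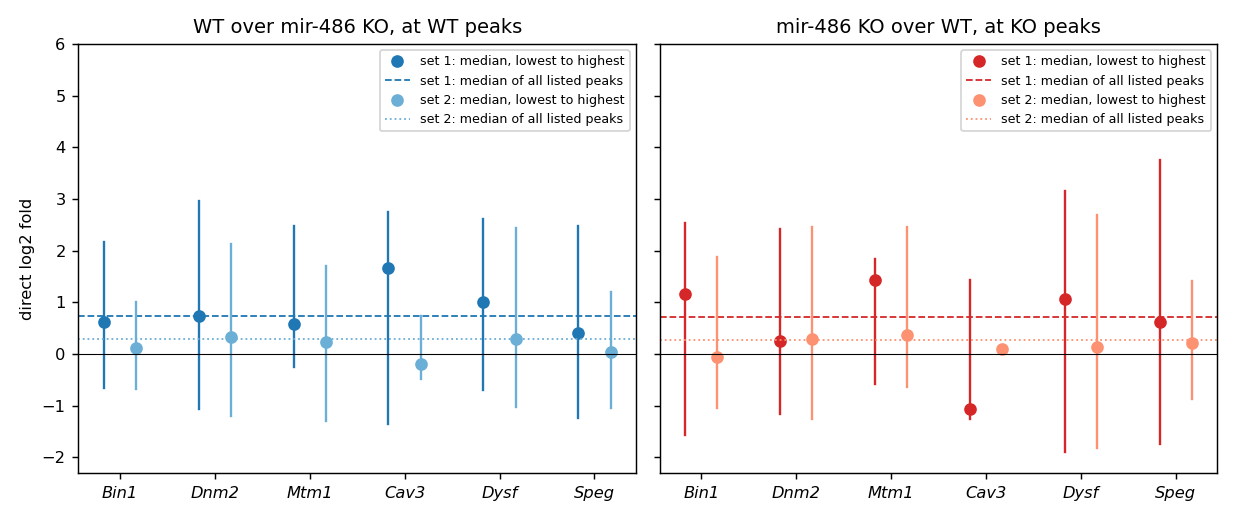
Direct log2 fold (y axis, log2) of the listed peaks of each gene, WT over mir-486 KO at WT peaks and mir-486 KO over WT at KO peaks, with points for the median, vertical lines from the lowest to the highest peak, and horizontal lines for the median of all listed peaks of the list. In WT over KO the medians of set 1 run from 0.41 in Speg to 1.66 in Cav3, and those of set 2 from −0.20 in Cav3 to 0.33 in Dnm2.

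Among the enriched peaks of the 6 genes, the miR-486-5p word occurred in 0 of 4. The miR-29 word occurred in 1 of 2 in WT set 1 (all enriched peaks 6.04%), the miR-133 word in 1 of 1 in WT set 2 (9.46%) and the let-7 word in 1 of 1 in KO set 2 (3.81%). Over all listed peaks of these genes, GTACAGG was found beside 1 of 170 in WT set 1 (all peaks 0.677%), 0 of 244 in KO set 1 (0.596%), 0 of 396 in WT set 2 (0.777%) and 1 of 428 in KO set 2 (0.801%). The latter was in a Dysf intron at chr6:84142331-84142337. A match is a run of letters, not a bound site, and the absence of a word says only that these letters are not in the window searched.

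Of 33 other genes of membrane repair, caveolae, phosphoinositides, membrane curvature and the triad, 32, 33, 32 and 33 were listed in WT set 1, KO set 1, WT set 2 and KO set 2. Enriched peaks occurred in 10 of them (15 of 491 peaks), 2 (3 of 621), 6 (9 of 1012) and 6 (9 of 1072), beside 3.57%, 0.848%, 1.42% and 1.23% of all listed peaks. Past the direct log2 threshold of 3, WT over KO of set 1 (0.469% of all listed peaks) held 2 peaks of Capn3, the muscle calpain, and 1 of Mtmr1, a relative of Mtm1. KO over WT of set 1 held none of these genes' peaks, and set 2 held none in either direction (0.0192% and 0.0144% of all listed peaks). Over all listed peaks of the gene, the median direct log2 fold in WT over KO was 0.88 in set 1 and 0.11 in set 2 for Capn3. For Mtmr1 it was 0.88 and 0.12. In KO over WT the medians were −0.16 and 0.28 for Capn3 and 0.84 and −0.12 for Mtmr1.

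Among 2589 genes with at least 10 listed peaks in each library, the gene nearest to each of the 6 by Euclidean distance over the 4 libraries' median log2 folds over input was Clint1 for Dnm2 (distance 0.019), Kdm5c for Dysf (0.041), Itgav for Mtm1 (0.070), Srl for Speg (0.075), Gm20716 for Bin1 (0.11) and Lrrc58 for Cav3 (0.53). Mtm1 and Cav3 themselves had fewer than 10 peaks in at least 1 library, and shared low-read values bring medians together.

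Markers of other cell types were also listed. Of 4 macrophage markers, 3, 3, 4 and 3 were listed in WT set 1, KO set 1, WT set 2 and KO set 2, with medians of their direct medians of 0.74, 1.0, 1.03 and −0.64. The 3 red blood cell markers had direct medians of 1.32 and 1.43 in WT over KO and −0.90 and −1.40 in KO over WT. Among them Alas2, with 1 peak in KO set 1, was at 1.43 there. In the library order above, the direct medians were 0.85, 0.42, 0.62 and −0.15 for fibroblast markers and 0.53, 1.43, −0.11 and 0.14 for endothelium. They were 0.78, −0.03, −0.30 and 0.46 for Schwann cells and −0.08, 0.74, 0.18 and 0.61 for adipocytes. The part of these cell types in the values of the 6 genes was not tested.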

How the data were processed

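AGO2 chimeric eCLIP lists of tibialis anterior muscle were analysed, 4 of libraries over input and 4 direct, with WT and mir-486 KO in 2 library sets. The authors deposited for each peak a log2 fold and a −log10 p, at most 400. Per the labels, UMI-tools, FastQC, cutadapt, STAR and SAMtools were used on GRCm38; the study's methods name CLIPper, and each list here belongs to 1 library or 1 pair of libraries. The labels name GENCODE M24; GENCODE M21 and RefSeq annotation of GRCm38 were used here. Columns of per-sample values left unused numbered 0.

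Groups came from the sample descriptions. Peaks were joined to genes on the same strand (at least 1 nt) and given the region of their midpoint, with CDS taking precedence, then UTR, noncoding exon and intron. Overlapping peaks of the 4 libraries on the same strand formed sites. Thresholds were log2 3 or 1 with −log10 p 3. Counts, medians, ranges and Wilson 95% intervals were given beside those of all listed peaks; no test across genotypes was made. Library depth is unknown, since no read counts were used.

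The named genes were the 6 members, each peak past a direct threshold, each gene's highest enriched peak per library, those other pathway genes with a peak past the direct threshold, and the nearest gene of each member. The members and lists were chosen with earlier results of these data known. The sites listed in all libraries were named after their values were seen. Python 3.11.15, numpy 2.4.6, pandas 2.3.3, scipy 1.17.1, pysam 0.24.0, bedtools 2.31.1 and matplotlib 3.10.9 were used, and the overlap, region and word searches were tested on simulated data. Alternatives covered thresholds, merged peaks, exonic peaks, centring, overlap, region rules, word length, peak extension and leaving out a set.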

Additional observations from a re-analysis of the deposited data

How the results depend on the processing

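No paired test across genotypes was made, because each genotype had 2 libraries. The labels carry no replicate numbers, and a set joins the libraries that share a title prefix. The direct comparisons pair WT with KO within a set and are given per set. Enriched peaks numbered 2, 0, 1 and 1 in WT set 1, KO set 1, WT set 2 and KO set 2. At log2 1 they numbered 7, 0, 19 and 6, and at log2 4 they numbered 1, 0, 0 and 0. A −log10 p of 2 gave 4 in WT set 1 and 1 in KO set 1, a −log10 p of 5 gave 1 in WT set 1 and 0 in KO set 2, and exonic peaks alone gave 0 in KO set 2. Leaving out a set gave 1 to 2 of the 3 WT peaks and 0 to 1 of the 1 KO peak. The direct count was 1, in KO set 1; it was 0 at log2 4, at a −log10 p of 5, among peaks enriched over input or without set 1, and 2 at a −log10 p of 2, while log2 1 gave 10 in WT set 1, 1 in WT set 2 and 1 in KO set 2. Leaving out a set gave 0 to 1 for KO over WT.

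The direct median of the 6 genes in WT set 1, 0.74, was 0.00 after centring on all listed peaks and 1.45 over the 7 peaks past log2 1. In KO set 1 the median of 0.84 was −0.33 over exonic peaks and 0.12 after centring. For single genes, centring moved 12 of 24 medians by over 1 SD of the sets and turned 13 signs, and exonic peaks moved 8 and turned 7. Leaving out set 1 turned 3 of 12 signs and leaving out set 2 turned none.

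No enriched peak overlapped an enriched peak elsewhere, but at log2 1 the overlaps were 3 of 7 (WT set 1 with WT set 2; all peaks past it 60.03%), 5 of 19 (the reverse; 39.4%), 4 of 19 (WT set 2 with KO set 2; 72.7%), 4 of 6 (the reverse; 78.4%), 0 of 7 (WT set 1 with KO set 1; 27.9%) and 0 of 6 (KO set 2 with KO set 1; 23.2%). Against any listed peak, 2 of WT set 1 overlapped WT set 2 and 2 overlapped KO set 1, 1 of WT set 2 overlapped WT set 1 and 1 overlapped KO set 2, and 1 of KO set 2 overlapped KO set 1. By region, log2 1 gave 6 CDS peaks in WT set 1 and 12 in WT set 2, 3 and 2 3′ UTR peaks in WT and KO set 2, and 3 intronic peaks in each of them. All listed peaks gave 113, 192 and 213 CDS, 14, 22 and 16 3′ UTR and 39, 168 and 182 intronic peaks in WT set 1, WT set 2 and KO set 2. Leaving out a set gave 0 to 1 CDS and intronic peaks and 1 3′ UTR peak. A 6-nt word gave 1 miR-1 and miR-206 match in place of 0, and log2 1 gave 2 for miR-1 and miR-206, 4 for miR-133, 3 for let-7 and 4 for miR-29 over 32 peaks. Causes of these moves, beyond fewer or more peaks passing, were not tested. Unknown depth limits the low peaks.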

Other observations

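On the opposite strand of Dnm2, within an intron of its gene, lies Mir199a-1 (chr9:21496495-21496564, minus strand), a hairpin whose miR-199a products are shared with Mir199a-2. Each of the 4 libraries had 2 enriched peaks there, with highest log2 folds over input of 4.83 in WT set 1, 4.78 in mir-486 KO set 1, 5.68 in WT set 2 and 4.17 in mir-486 KO set 2, all above every same-strand peak of the 6 genes. The median direct log2 folds were 0.11 and 0.36 in WT over KO and −0.16 and −0.42 in KO over WT. The mature sequences, from the RefSeq entry of Mir199a-2 with bases 2 to 8 in capitals, are shown to identify the product; reads of the shared arms cannot be assigned to a locus.
miR-199a-5p: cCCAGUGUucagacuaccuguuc
miR-199a-3p: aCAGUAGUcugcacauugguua

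Of the 371 intronic sites of the 6 genes, 9 lay on an exon annotated by RefSeq, and 3 of these were among the 8 listed in all 4 libraries: the 45-nt Bin1 exon and a pair of Speg exons of 1285 nt (11 of 32 RefSeq transcripts) and 932 nt (5 of 32). The Speg site under the 1285-nt exon, chr1:75381083-75381710, had log2 folds over input of 0.10, 1.38, 0.57 and 0.18 in WT set 1, KO set 1, WT set 2 and KO set 2. Its direct log2 folds were −0.91 and −0.45 in WT over KO and 0.93 and 0.72 in KO over WT.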
